A study of Arabidopsis thaliana with 6 samples.

Results

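The spliceosomal small nuclear RNA (snRNA) genes of Arabidopsis thaliana are the 78 rows of the deposited table whose locus the TAIR10.1 annotation types as snRNA, out of 39351 features in all. They comprise 13 U1, 22 U2, 11 U4, 13 U5 and 13 U6 genes and 6 genes of the minor spliceosome (U12, U4atac and U6atac). The annotation holds 82 such genes, and the remaining 4 (U1.9, U2.10b/12, U5.4 and U6-26) were not analysed here. The libraries come from RNA immunoprecipitation of NSRa, a nuclear speckle RNA binding protein, fused to HA and driven by its own promoter in the nsra mutant, so that every library carries both the mutation and the transgene and no untagged plant is among them. Before harvest, all seedlings spent 24 h on the auxin analogue NAA (naphthaleneacetic acid), and they were UV-irradiated at 0.4 J/cm2. The NAA dose is given as 1 µM in one protocol and as 100 nM in another, and the age as 10, 14 or 15 days. The groups of 2 libraries each are RIP (anti-HA pull-down), Mock (pull-down with mouse IgG) and Input (lysate RNA). Whether the 2 libraries of a group came from separate cultures is not stated, so p-values measure only the spread between these libraries.

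Introns of nuclear pre-mRNAs are removed by the spliceosome, a set of small nuclear ribonucleoproteins (snRNPs) each built around an snRNA. U1 base pairs with the 5′ splice site and U2 with the branch point, while U4, U5 and U6 join as a tri-snRNP in which U6 is held by U4 until activation. The minor spliceosome uses U12, U4atac and U6atac in place of U2, U4 and U6 for a small class of introns and shares U5. In plants most snRNAs are encoded by several near-identical genes, and transcription of these genes depends on an upstream sequence element (USE) and a TATA box.

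The whole table rests on unequal depth. The recovered totals were 1599136 and 977230 reads in RIP, 197923 and 154149 reads in Mock, and 27494964 and 25274634 reads in Input. The value of 1 read was 0.625 and 1.02 CPM (counts scaled to a common library total) in RIP, 5.05 and 6.49 CPM in Mock, and 0.0364 and 0.0396 CPM in Input. Of the 19997 features tested, 67.3% had no read in either Mock library. The seedling label was checked by RBCS1A, a small subunit of Rubisco, at 1889 and 2496 FPKM in RIP, 1116 and 2691 FPKM in Mock, and 3545 and 3598 FPKM in Input. It was also checked by the seed storage genes SESA1 and CRA1. SESA1 was listed at 0 in all 6 libraries. CRA1 was at 7.71 and 3.29 FPKM in RIP, 0 and 0 FPKM in Mock, and 0.117 and 0.0636 FPKM in Input, so it was low but not absent. FPKM, the unit of the deposited values, is the read count divided by exon length and by library total. NSRa mRNA was at 145 and 105 FPKM in RIP, 181 and 60.3 FPKM in Mock, and 11.4 and 12.1 FPKM in Input, so RIP and Mock overlapped for the transcript of the tagged protein. NSRb, its close relative, was at 0 FPKM in both pull-downs and at most 0.201 FPKM in Input.

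The sequences at the annotated positions of 1 member each of U1, U2, U4 and U5 and of U12 are printed first, because the read counts below depend on which gene windows hold such an RNA. They were read from the TAIR10.1 genome of RefSeq, 5′ to 3′ on the gene's strand, and capitals mark the letters ACTTACCTG (U1, the end that pairs with the 5′ splice site), GTAGTA (U2, branch point pairing) and CTTTTAC (U5 loop), with none marked in U4.2 and U12.
U1.5: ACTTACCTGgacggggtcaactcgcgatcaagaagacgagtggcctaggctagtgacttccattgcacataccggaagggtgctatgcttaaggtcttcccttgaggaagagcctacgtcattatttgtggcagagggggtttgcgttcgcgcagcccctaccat
U2.1: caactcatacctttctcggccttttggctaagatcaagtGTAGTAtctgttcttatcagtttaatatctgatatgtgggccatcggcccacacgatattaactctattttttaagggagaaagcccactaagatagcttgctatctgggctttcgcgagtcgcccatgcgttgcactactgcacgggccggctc
U4.2: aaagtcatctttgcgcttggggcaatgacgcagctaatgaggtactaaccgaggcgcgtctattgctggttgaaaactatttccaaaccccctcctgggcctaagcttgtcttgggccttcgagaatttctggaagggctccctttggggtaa
U5.5: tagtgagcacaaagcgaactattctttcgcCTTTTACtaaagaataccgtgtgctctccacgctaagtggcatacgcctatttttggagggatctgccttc
U12: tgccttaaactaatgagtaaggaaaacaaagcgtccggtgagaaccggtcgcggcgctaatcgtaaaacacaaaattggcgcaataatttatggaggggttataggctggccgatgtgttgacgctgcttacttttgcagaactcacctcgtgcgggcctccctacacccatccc
U1.5 (AT1G08115) occupies chr1:2538074-2538238 on the minus strand, U2.1 (AT1G05273) chr1:5758382-5758575 on the plus strand, U4.2 (AT3G06900) chr3:2178191-2178343 on the minus strand, U5.5 (AT1G05853) chr1:8525104-8525204 on the minus strand, and U12 (AT1G61275) chr1:22603121-22603295 on the plus strand. U1.5 stands for its family although U1.7 had more reads, because it begins with the splice site letters.

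In 40 of the 78 annotated windows, local alignment to a representative member of the named RNA gave identical bases over at least 80% of the shorter sequence, and these are said below to hold their RNA. For 3 of the 40 the window is itself a short piece of the RNA (U6.11p with 24 bases, U5.10 with 42 and U1.11p with 55). Another 3 windows (U1.14p, U4.10 and U1.12p) held between 57.0 and 75.0%, and the other 35 held at most 34.9%, with a median of 7.92%. For 27 of these 35, a copy of the named RNA of at least 80% identity lay at lower coordinates on the same strand, and for 23 of these the distance was nearly constant along a chromosome. The distance was 3663 to 3681 bases for 6 genes on chromosome 1, 7082 to 7085 bases for 2 genes on chromosome 2, 10977 to 10980 bases for 5 genes on chromosome 3, and 17223 to 17234 bases for 10 genes on chromosome 5. The remaining 4 of the 27 lay at other distances on chromosomes 1 and 3. At 8 of the 27 places the annotation has another snRNA gene, such as U12 (AT1G61275) for U12*$ (AT1G08367) and U2.4 (AT3G56825) for the second gene named U2.4 (AT3G08735). At the other 19 there was no annotated snRNA gene and hence no row. Positions are those of the RefSeq annotation, and whether the authors counted over the same positions is not given in the sources used here.

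**Figure D1:**
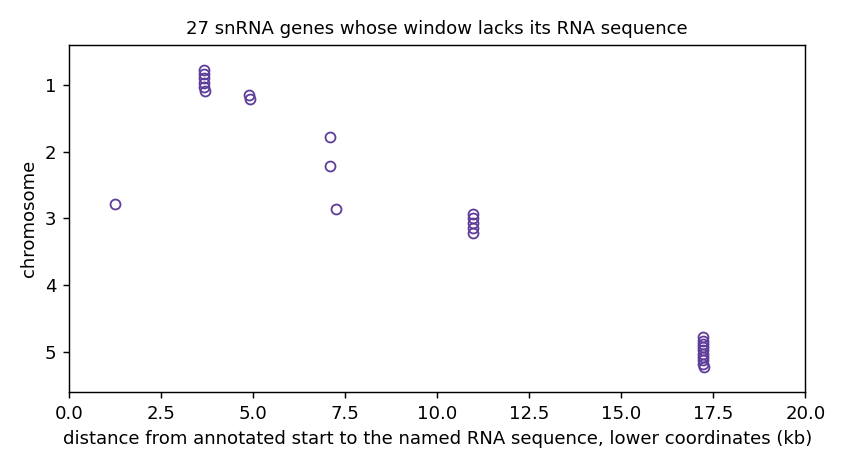
Distance (x axis, kb) from the annotated start of each of 27 snRNA genes to the nearest same-strand copy of its named RNA at lower coordinates, by chromosome (y axis). Each circle is 1 gene, spread vertically for visibility; the 10 circles of chromosome 5 fall together at 17223 to 17234 bases, while chromosomes 1 and 3 also hold 2 genes each at other distances.

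The reads of the pull-downs came almost entirely from the 40 windows that hold their RNA. They took 209101 of 209152 snRNA reads in RIP1, 208537 of 208556 in RIP2, all 19691 in Mock1, all 16119 in Mock2, but 271 of 723 in Input1 and 263 of 710 in Input2. The 35 windows without their RNA had 47 and 7 reads in RIP, 0 and 0 reads in Mock, and 450 and 446 reads in Input, and 25 of them had no read in any library. Among the 10 with reads, 9 lay within or across a protein-coding gene on the same strand, as did all 7 that passed the filter of 1 FPKM in 2 libraries. The gene named U2.6 at AT3G08695 had 0 and 0 reads in RIP, 0 and 0 in Mock, and 78 and 87 in Input, and 183 of its 195 bases were exonic in AT3G56740. The other gene named U2.6, AT3G56705, held its RNA and had 338 and 158 reads in RIP, 41 and 24 in Mock, and 3 and 3 in Input. U2.2* (AT3G08945) had 22 and 0 reads in RIP, 0 and 0 in Mock, and 51 and 44 in Input. U2.16 (AT5G08810) had 0 and 4 reads in RIP, 0 and 0 in Mock, and 26 and 19 in Input. The second gene named U2.3 (AT3G09005) had 0 and 0 reads in RIP, 0 and 0 in Mock, and 7 and 9 in Input. Equal names thus stood for windows with different patterns, and members are given by locus below where a name occurs more than once.

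**Figure D2:**
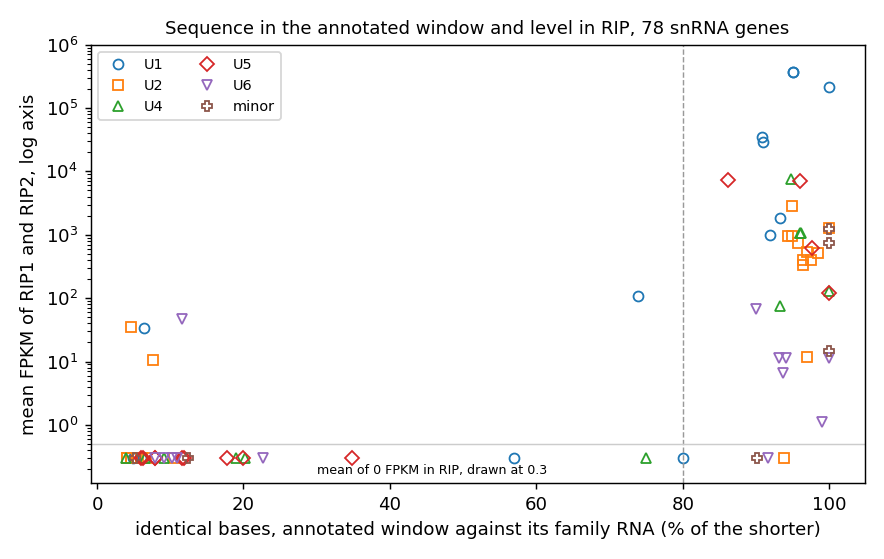
Identity of each of the 78 annotated windows to its family RNA (x axis, % of the shorter sequence, dashed line at 80%) against its mean level in RIP1 and RIP2 (y axis, FPKM, log axis), with 1 symbol per gene and 1 symbol shape per family. The highest gene left of the line is U1.12p, at 36.3 FPKM in RIP1 and 178 FPKM in RIP2, and genes with 0 reads in RIP are drawn near the bottom.

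Upstream of the genes, the letters TCCCACATC, which form the core of the plant USE, were searched on both strands from 250 bases before to 50 bases after each start. They were present at 27 of the 40 windows that hold their RNA, at 0 of the 3 partial windows and at 0 of the 35 others, against 179 of 37899 annotated genes (0.472%). The letters TATATAA were present at 13 of the 40, 0 of the 3 and 1 of the 35, against 8020 of 37899 genes (21.2%). Among the 13, U4.2, U6-1, U6.3 and U6.4 had them on the opposite strand only, and U2.6 (AT3G56705) at position -245. An exact search also misses near matches such as tataaata, which both upstream sequences printed below contain. The count thus does not tell how many genes have a TATA box. In 26 cases TCCCACATC lay before the start, 98 to 62 bases from it. A match describes the letters and is not evidence that they are used. Of the 34 holding windows that were tested for abundance, 25 had the letters and 9 did not, and these 9 include U2.9, U6-1, U6.4 and 5 U2 genes with annotated models of 551 bases or more. All 6 holding models of 551 to 912 bases (these 5 and U6-29) contain the letters inside the model, beyond the reach of a search around its start. The 100 bases before U1.5 (chr1:2538239-2538338, minus strand) and U4.2 (chr3:2178344-2178443, minus strand) are printed with these letters in capitals because both genes were among the 10 highest features of the RIP libraries.
U1.5 upstream: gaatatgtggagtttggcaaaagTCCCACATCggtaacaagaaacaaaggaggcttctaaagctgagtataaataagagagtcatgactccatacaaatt
U4.2 upstream: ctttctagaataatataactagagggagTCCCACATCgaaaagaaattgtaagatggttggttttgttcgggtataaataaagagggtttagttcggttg

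Within the RNAs, GTAGTA was found in 12 of 12 holding U2 windows and at 2.73% of all annotated genes, searched near their 5′ end on the RNA strand. CTTTTAC was in 4 of 4 U5 windows (2.08% of genes). ACTTACCTG was inside 2 of 8 U1 windows (0.0554% of genes). In U1.6, U1.7, U1.2, U1.8 and U1.10 these letters began 1 to 8 bases before the annotated start, so the annotated U1 models differ in where they begin.

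Across the families, U1 dominated the pull-downs. The U1 windows that hold their RNA took 12.4 and 20.8% of all reads in RIP (95% exact binomial intervals 12.3 to 12.4% and 20.7 to 20.9%), 9.45 and 9.63% in Mock (9.32 to 9.57% and 9.48 to 9.78%), and 0.000316 and 0.000356% in Input (0.000253 to 0.000390% and 0.000286 to 0.000438%). Intervals here and floors below cover counting error only, since the reads carry no molecular identifiers. They also take no account of reads that fit several copies. U1.6 and U1.7 had 71161 reads each in RIP1, and whether the same reads were counted at both was not tested. The highest U1 copy alone took 4.45 and 7.57% in RIP, and 3.41 and 3.46% in Mock. U1 was thus above every other family in each pull-down library, and its RIP share differed more between the 2 RIP libraries than between RIP1 and either Mock library. U2 took 0.334 and 0.214% in RIP, 0.108 and 0.285% in Mock, and 0.000524 and 0.000542% in Input. U4 took 0.140 and 0.167% in RIP, 0.226 and 0.208% in Mock, and from 3 and 2 reads 1.09e-05 and 7.91e-06% in Input. U5 took 0.173 and 0.123% in RIP, 0.127 and 0.278% in Mock, and 1 and 0 reads in Input. The genes of the minor spliceosome took 0.0315 and 0.0356% in RIP, 0.0435 and 0.0590% in Mock, and 4e-05 and 3.56e-05% in Input. U6 took 25 and 8 reads in RIP, 0 and 0 reads in Mock and 25 and 25 reads in Input.

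**Figure D3:**
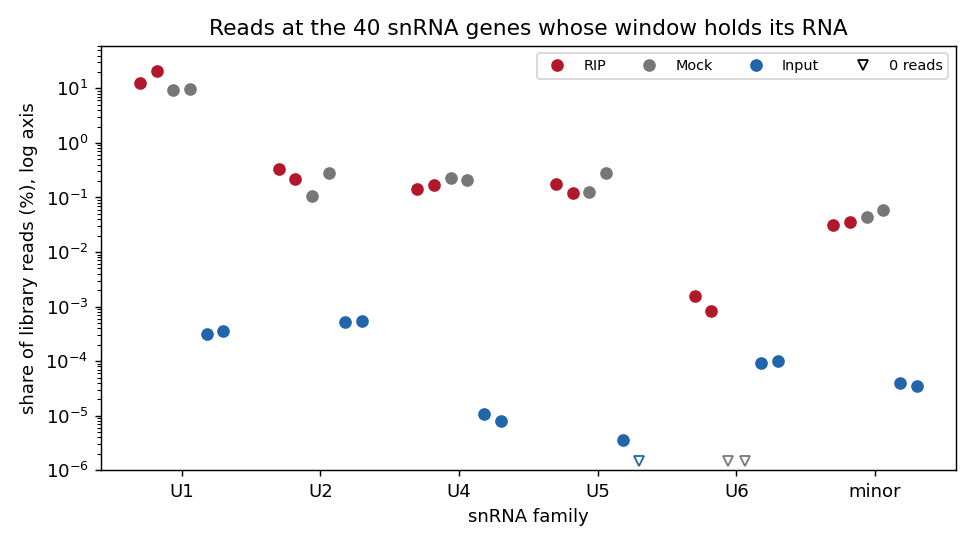
Share of library reads (y axis, %, log axis) counted at the 40 snRNA genes whose window holds its RNA, by family (x axis) and library, with RIP left of Mock and Mock left of Input. U1 reached 12.4 and 20.8% in RIP and 9.45 and 9.63% in Mock, against at most 0.000356% in Input, and open triangles mark 0 reads. Reads that fit several copies may be counted at each.

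The make-up of the snRNA reads differed between pull-downs and lysate. Among reads in holding windows, U1 made up 94.8 and 97.5% in RIP, 94.9 and 92.1% in Mock, and 32.1 and 34.2% in Input. U2 made up 2.55 and 1.00% in RIP, 1.08 and 2.72% in Mock, and 53.1 and 52.1% in Input. U6 made up 0.0120 and 0.00384% in RIP, 0 in Mock, and 9.23 and 9.51% in Input. The Input values rest on 271 and 263 reads in all, and reads that fit several copies may be counted at each. The highest Input windows overlap annotated genes on their strand, such as U2.4 (AT3G56825) with 67 and 64 reads and U2.11 (AT1G04733) with 47 and 39 reads. Of the 189 bases of U2.11, 187 are exonic in the protein-coding gene AT1G09800, and which gene its Input reads came from cannot be told apart.

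In RIP against Input, 42 of the 78 snRNA genes were tested. Of these 42, 23 were called higher and 2 lower, at a log2 fold change past 2 and an adjusted p under 0.01 (limma with Benjamini-Hochberg adjustment over 19997 features). The background of this rule was 1.48% of tested features higher and 5.78% lower. The 42 snRNA genes that passed the filter had a median log2 fold change of 8.53, against -0.52 over all features tested, but genes can pass that filter by their pull-down level alone. All 23 higher genes were windows that hold their RNA (6 U1, 7 U2, 4 U4, 2 U5, 2 U6 and 2 minor), and both lower ones, U2.6 (AT3G08695) and U4.3p (AT5G07405), were windows that do not. Without Input replicate 1 the count higher was 14 and without Input replicate 2 it was 12. Under quantile normalization the background was 273 higher and 298 lower in place of 296 and 1155. Both RIP libraries were above both Input libraries for 34 of the 34 tested holding windows, and for 22.7% of all tested features. For windows that passed the filter by their pull-down level alone, this order was largely set by the filter. The count is therefore a description and not a test.

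In Mock against Input, 18 snRNA genes were called higher and 3 lower by the same rule, with backgrounds of 0.715% higher and 41.0% lower. All 18 were windows that hold their RNA, and the 3 lower genes (U2.6 at AT3G08695, U4.3p and U6.10p) were not. The median log2 fold change of the 42 genes was 4.42 in Mock against Input, against -2.70 over all features. Under quantile normalization the background was 161 higher and 574 lower in place of 143 and 8205. RIP and Mock are set against the same 2 Input libraries, so these counts share their reference.

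In RIP against Mock, 9 snRNA genes were called higher and 0 lower, at a log2 fold change of at least 1 and an adjusted p under 0.01, with backgrounds of 34.3% higher and 0.180% lower. The unadjusted limma p was under 0.05 for 12 higher and 3 lower genes, and voom on the recovered reads called 0 higher and 3 lower. Without RIP replicate 1, and also without Mock replicate 2, the count higher was 14. Under quantile normalization 4 snRNA genes were higher (U2.9, U4.5, U1.2 and U1.4) and 2 lower, with a background of 228 higher and 1785 lower in place of 6853 and 36. The median log2 fold change was 1.17 for the snRNA genes and 2.13 over all features. With 0.1 added to each FPKM in place of 1, these medians were 1.39 and 4.36. All 9 higher genes had 0 reads in both Mock libraries, as did 98.6% of the 6853 features called higher. The 9 were U2.9, U4.5, U6-1, U6.3, U6.4, U6.5, U6acat, the partial window U1.12p and U6.10p, whose window does not hold its RNA. Against a floor of 3 reads in each Mock library, U2.9 exceeded what 0 reads allow in both RIP libraries, and U4.5 did so in RIP2 alone, at 61.3 FPKM in RIP1 and 194 FPKM in RIP2 against a floor of 113 FPKM. The other 7 had a RIP level at or under that floor, so a difference from Mock was not detectable at this depth.

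**Figure D4:**
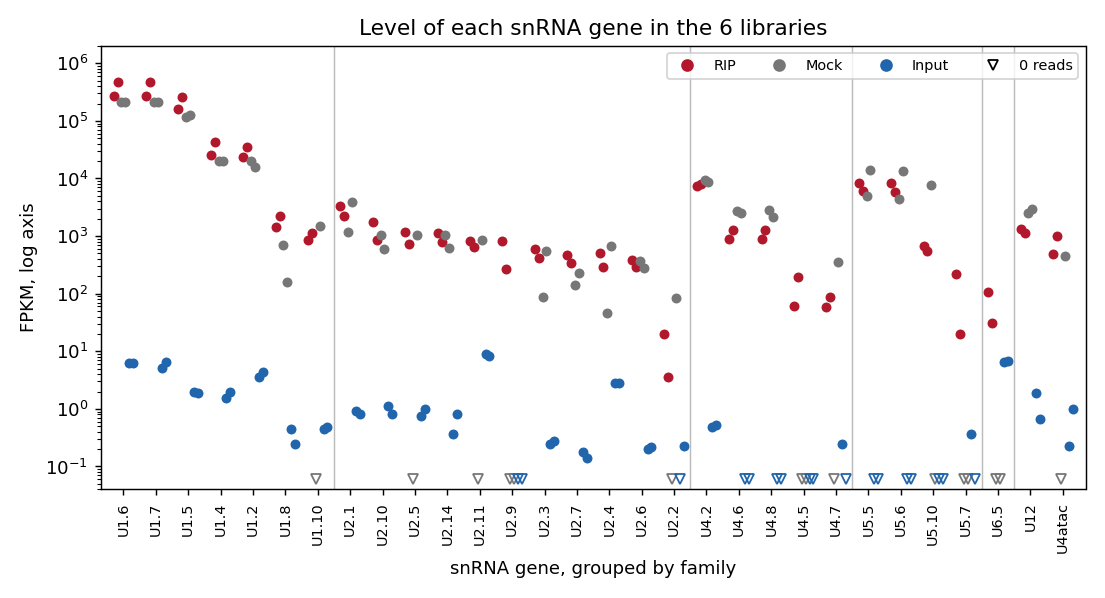
FPKM (y axis, log axis) of the 30 snRNA genes whose window holds its RNA and that had at least 20 reads over the 6 libraries, grouped by family, with RIP left of Mock and Mock left of Input for each gene. Open triangles mark 0 reads, and the 5 highest U1 genes lie at 15727 FPKM or more in each pull-down library while no Input value exceeds 9.04 FPKM.

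U1 carries the recognition of the 5′ splice site, and 5 of its genes were far above the rest. U1.7 (AT3G01695) had 71161 and 73950 reads in RIP, 6747 and 5337 reads in Mock, and 23 and 27 reads in Input. U1.6 (AT3G01715) had 71161 and 73953 reads in RIP, 6747 and 5337 reads in Mock, and 28 and 26 reads in Input. Their pull-down counts were thus all but equal, and their annotated windows share 84 of 88 stretches of 75 bases, the read length. The printed windows of U1.7 (chr3:1657767-1657928, plus strand) and U1.6 (chr3:1681816-1681977, plus strand) differ at the 2 positions in capitals, T159A and A161C counted from the first base, with the U1.7 base first.
U1.7: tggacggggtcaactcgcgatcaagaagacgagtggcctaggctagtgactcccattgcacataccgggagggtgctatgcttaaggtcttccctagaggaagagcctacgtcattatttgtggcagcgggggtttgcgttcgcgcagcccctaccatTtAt
U1.6: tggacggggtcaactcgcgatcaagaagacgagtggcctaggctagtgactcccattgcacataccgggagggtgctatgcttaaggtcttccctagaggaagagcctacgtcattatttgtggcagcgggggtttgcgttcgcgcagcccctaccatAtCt
A read from the shared stretch fits both genes, and whether it was counted at both was not tested.

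U1.5 had 42211 and 42278 reads in RIP, 3872 and 3210 reads in Mock, and 9 and 8 reads in Input, and 86 of its 91 stretches of 75 bases occur once in the genome. U1.4 (AT5G04105) had 6769 and 6886 reads in RIP, 641 and 516 in Mock, and 7 and 8 in Input. U1.2 (AT4G07120) had 6315 and 5652 reads in RIP, 664 and 400 in Mock, and 16 and 18 in Input, and lies within exons of AT4G23420 on the same strand. All stretches of 75 bases in the windows of U1.4 and U1.2 occur once in the genome, so a read that matches one exactly fits no other U1 copy. Whether reads with mismatches were shared between copies was not tested. Per length, U1.7 and U1.6 were at 274689 FPKM in RIP1, U1.5 at 159977 FPKM, U1.4 at 25810 FPKM and U1.2 at 23933 FPKM. The first 5 places among all features in both RIP libraries were held by these 5 genes. Mock libraries had U1.6 and U1.7 first as well, while in Input the 5 genes ranked between 12779 and 18507.

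Each of the 5 had a greater FPKM in both RIP libraries than in either Mock library, and none passed the rule. The log2 fold change of RIP against Mock was 0.76 for U1.7 (SE 0.29, adjusted p = 0.122), 0.76 for U1.6 (SE 0.27, adjusted p = 0.103), and 0.74 for U1.5 (SE 0.26, adjusted p = 0.0946, 95% interval 0.02 to 1.47), by limma. It was 0.73 for U1.4 and 0.70 for U1.2. These values lie under the median of 2.13 over all features tested. Of those features 67.3% had no read in either Mock library, and with 0.1 added in place of 1 their median was 4.36. Against Input they were 15.68, 15.58, 16.08, 13.57 and 12.53, and all 5 had an adjusted p of 8.74e-05 in limma. Without RIP replicate 1, U1.5 was at 1.10, U1.6 at 1.14 and U1.4 at 1.10, values that rest on RIP2 alone. RIP1 lay nearer to Mock than RIP2 did. U1.5 was at 159977 FPKM in RIP1 and 262201 FPKM in RIP2, against 118565 and 126206 FPKM in Mock. Under quantile normalization U1.4 (1.82) and U1.2 (1.72) passed and U1.7 was at -0.01. That normalization gives equal values to equal ranks and moves the median of all features to -0.17. U1.7 ranked 1 or 2 in each RIP and Mock library, so its value near 0 was set in advance and says nothing about its enrichment.

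Of the less abundant U1 genes, U1.8 (AT5G04455) had 380 and 353 reads in RIP, 23 and 4 in Mock, and 2 and 1 in Input. U1.10 (AT1G04907) had 217 and 178 reads in RIP, 0 and 37 in Mock, and 2 and 2 in Input, and was not called in RIP against Input (log2 fold change 9.38, SE 3.75, limma adjusted p = 0.182). It was 1 of 11 tested holding windows that were not called there, of which 7 had reads in only 1 of the 2 Mock libraries, and the Mock spread enters the error of each comparison. U1.12p (AT4G07145) had 4 and 12 reads in RIP, 0 and 0 in Mock, and 2 and 1 in Input. U1.13p (AT5G07415), without its RNA, had 17 and 0 reads in RIP, 0 and 0 in Mock, and 142 and 148 in Input.

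U2 pairs with the branch point. U2.1 had 1046 and 429 reads in RIP, 45 and 116 reads in Mock, and 5 and 4 reads in Input, so the pull-downs overlapped and both stood above Input. Its log2 fold change was 10.52 in RIP against Input (SE 0.69, adjusted p = 0.00124) and 0.37 in RIP against Mock (SE 0.69, adjusted p = 0.735, 95% interval -1.55 to 2.30), by limma. The U2 windows shared up to 77 stretches of 75 bases with another member, and some stretches occur at 14 places in the genome, so reads of single U2 genes are not independent. U2.5 (AT5G09585), U2.10 (AT2G04375), U2.11 and U2.14 (AT1G05057) had between 249 and 541 reads in RIP1 and between 121 and 163 in RIP2, against 0 to 41 in Mock1 and 18 to 32 in Mock2. U2.3 (AT3G57765), U2.4 (AT3G56825), U2.6 (AT3G56705) and U2.7 (AT5G61455) have models of 551 to 883 bases, several times the RNA, so their FPKM understate the level of the RNA itself. U2.2 (AT3G57645), of the same kind, had 28 and 3 reads in RIP, 0 and 11 in Mock, and 0 and 5 in Input. U2.4 had 710 and 250 reads in RIP, 8 and 91 in Mock, and 67 and 64 in Input, and its log2 fold change of 6.65 in RIP against Input missed the rule (SE 1.42, limma adjusted p = 0.0435).

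Both RIP libraries were above both Mock libraries for U2.7 and U2.9. U2.7 was at 462 and 344 FPKM in RIP, 140 and 226 FPKM in Mock, and 0.175 and 0.143 FPKM in Input, and was not called in RIP against Mock (log2 fold change 1.16, SE 0.43, limma adjusted p = 0.111). U2.9 (AT4G03995) had 252 and 50 reads in RIP, 0 and 0 in Mock, and 0 and 0 in Input, and the mean of its FPKM of 817 and 265 in RIP exceeded the floor of 3 reads per library at least 6.03-fold for Mock and at least 916-fold for Input. The limma log2 fold change of 8.87 in RIP against Mock (SE 0.61, adjusted p = 0.000823) depends on the value of 1 added to each FPKM. Its window is printed because 45 of its stretches of 75 bases are shared with U2.1 and 65 with U2.10, and 54 of 119 occur once.
U2.9: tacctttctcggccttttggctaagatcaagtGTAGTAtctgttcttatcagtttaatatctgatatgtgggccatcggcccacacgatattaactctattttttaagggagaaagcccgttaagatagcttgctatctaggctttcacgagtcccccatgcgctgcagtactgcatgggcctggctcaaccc
The window is chr4:815274-815466 on the plus strand, and the capitals mark GTAGTA as in U2.1. Reads in the shared stretches cannot be assigned to 1 member.

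U4 holds U6 inactive before activation of the spliceosome. U4.2 had 1782 and 1219 reads in RIP, 281 and 203 in Mock, and 2 and 2 in Input. In FPKM it was at 7283 and 8153 in RIP, below 9279 and 8607 in Mock, and both pull-downs were far above 0.475 and 0.517 in Input. The pooled ratio of RIP to Input was 15367, with a counting interval of 5996 to 56435 that is wide because of the 4 Input reads. U4.6 (AT1G04897) was at 907 and 1257 FPKM in RIP, and 2741 and 2502 FPKM in Mock, with 0 reads in Input. U4.8 (AT5G04305) was at 890 and 1264 FPKM in RIP, and 2814 and 2177 FPKM in Mock, with 0 reads in Input. The log2 fold change of RIP against Mock was -1.29 for U4.6 (SE 0.33, adjusted p = 0.0406) and -1.22 for U4.8 (SE 0.36, adjusted p = 0.0605) by limma, neither past the rule, and -0.28 and -0.24 under quantile normalization. U4.2 was at -0.21, with a 95% interval of -0.77 to 0.34 that spans 0, so that its direction is not fixed. Quantile normalization gave 1.27, a value that follows the ranks of U4.2, 10 and 8 in RIP against 20 and 23 in Mock. Those ranks also depend on which other features have Mock reads. U4.6 and U4.8 share 55 stretches of 75 bases. U4.5 (AT5G04085) had 15 and 29 reads in RIP, 0 and 0 in Mock, and 0 and 0 in Input. Its mean RIP level exceeded the floor set by 3 reads per Mock library at least 1.13-fold, which rests on RIP2. U4.7 (AT5G04465) had 14 and 13 reads in RIP, 0 and 8 in Mock, and 1 and 0 in Input.

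U5 contacts both exons and is the snRNA that the major and minor spliceosomes share. U5.5 had 1363 and 609 reads in RIP, 100 and 216 in Mock, and 0 and 0 in Input. U5.6 (AT1G04263) had 1330 and 569 reads in RIP, 87 and 212 in Mock, and 0 and 0 in Input. Both genes were higher in RIP1 than in RIP2 and in Mock2 than in Mock1, and RIP and Mock overlapped in FPKM (8439 and 6170 in RIP, 5002 and 13874 in Mock for U5.5). In RIP, U5.5 exceeded the floor of Input at least 6477-fold, and its log2 fold change in RIP against Mock was -0.21 (95% interval -1.82 to 1.41), and 1.31 under quantile normalization. U5.7 (AT4G04185) had 35 and 2 reads in RIP, 0 and 0 in Mock, and 1 and 0 in Input. U5.10 (AT5G02255), whose model covers 42 bases and is shorter than a read, had 45 and 23 reads in RIP, 64 and 0 in Mock, and 0 and 0 in Input, so 1 Mock library decides its level.

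U6 forms the catalytic centre and, like U6atac, is transcribed by RNA polymerase III. Apart from U6.5, the U6 windows that hold their RNA had at most 6 reads in a library. U6-1 (AT3G14735) had 2 and 1 reads in RIP, 0 and 0 in Mock, and 2 and 1 in Input, and U6.3 (AT4G07875) had the same number in all 6 libraries. The windows of U6-1 and U6.3 share 25 of 27 stretches of 75 bases. U6.4 (AT4G04615) had 2 and 1 reads in RIP, 0 and 0 in Mock, and 3 and 6 in Input. U6.5 (AT4G08755) had the most reads among the U6 windows that hold their RNA, with 17 and 3 reads in RIP, 0 and 0 in Mock, and 18 and 17 in Input, but 97 of its 100 bases are exonic in the annotated RNA gene AT4G08735 on the same strand. U6.6 (AT4G09135) and U6-29 (AT5G46315) had 2 reads each, in 1 RIP library. As a share of the library, all U6 windows holding their RNA reached 0.00156 and 0.000819% in RIP, while 0 reads allow up to 0.00152 and 0.00195% in Mock. U6-1 and U6.3 were called higher in RIP against Input, at a log2 fold change of 2.98 (SE 0.17, limma adjusted p = 0.000726) that rests on 3 reads in RIP and 3 in Input for each gene. U6.10p (AT3G07265) had 8 and 3 reads in RIP, 0 and 0 in Mock, and 90 and 89 in Input, and all 86 of its bases are exonic in AT3G45740.

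Of the minor spliceosome, U12 (the branch point RNA of minor introns) had 375 and 190 reads in RIP, 86 and 80 in Mock, and 9 and 3 in Input. In FPKM it was at 1340 and 1111 in RIP, below 2483 and 2966 in Mock and above 1.87 and 0.678 in Input. The log2 fold change was 9.12 in RIP against Input (SE 0.40, adjusted p = 0.000336) and -1.15 in RIP against Mock (SE 0.40, adjusted p = 0.0926) by limma, and -0.06 in RIP against Mock under quantile normalization. All 101 stretches of 75 bases in its window are unique. U4atac (AT4G06375) had 123 and 155 reads in RIP, 0 and 11 in Mock, and 1 and 4 in Input. It was at 487 and 1004 FPKM in RIP, above Mock at 0 and 452 FPKM. The pooled ratio of RIP to Mock was 3.45 with a counting interval whose lower bound was 1.90, and it passed no comparison. U6acat (AT5G40395), a U6atac gene, had 5 and 3 reads in RIP, 0 and 0 in Mock, and 1 and 2 in Input. It was called higher in RIP against Input (3.64, SE 0.12, limma adjusted p = 0.000144) on 8 RIP reads.

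Both RIP libraries were above both Mock libraries for 16 of the 34 tested holding windows, against 56.6% of all tested features. No read in either Mock library was found for 8 of the 34 windows and for 67.3% of all tested features. U4.2, U4.6, U4.8 and U12 had a lower FPKM in both RIP libraries than in either Mock library, an order that quantile normalization turned round for U4.2. Summed over each family, the ratio of RIP to Mock in CPM was 1.74 for U1, 1.40 for U2, 0.709 for U4, 0.733 for U5 and 0.654 for the minor genes. Without Mock replicate 2 the ratio was 2.56 for U2 and 1.17 for U5, and without Mock replicate 1 it was 0.966 for U2, so the direction for U2 and U5 rests on single Mock libraries. Counted within each library, the holding windows gave 88.3 and 124 U1 reads per U4 read in RIP, 41.8 and 46.4 in Mock, and 29.0 and 45.0 in Input. This ratio was higher in each RIP library than in each Mock library. Its Input values rest on only 3 and 2 U4 reads and cannot be ranked against the pull-downs. With 2 libraries against 2, the smallest p, as a two-sided value, of an exact permutation test is 0.33, and these ratios are given as a description.

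**Figure D5:**
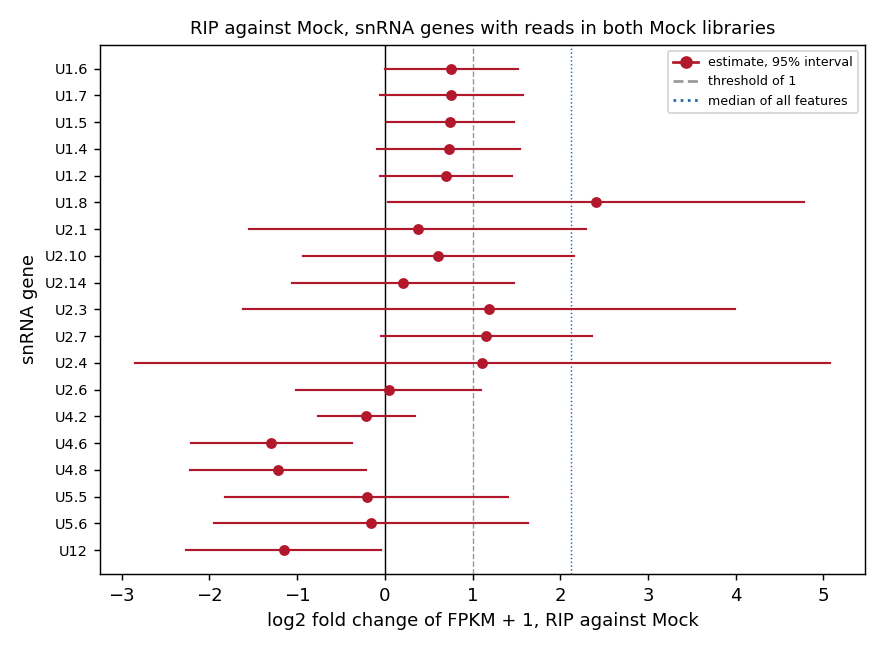
Log2 fold change of RIP against Mock on the log2(FPKM + 1) scale (x axis) with its 95% interval from limma, for the 19 snRNA genes whose window holds its RNA and that had reads in both Mock libraries (y axis, U1 at the top). The 5 highest U1 genes sit between 0.70 and 0.76 and U4.6, U4.8 and U12 between -1.29 and -1.15, and the dotted line marks the median of 2.13 over all features. Of those features 67.3% had no read in either Mock library.

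The mRNAs of snRNP proteins were set beside the snRNAs. The list holds 40 genes, among them the Sm and LSM rings, U1-70K, U1A and U1C, U2 and tri-snRNP proteins, U11 and U12 proteins, and SRD2 and DSP1, which act in making snRNAs, and all 40 were tested. In RIP against Input 0 were called in either direction, with a median log2 fold change of -0.59 against -0.52 over all features. The unadjusted limma p was under 0.05 for 1 higher and 10 lower, and voom called 0. In RIP against Mock 21 were higher, beside 34.3% of all tested features, and 0 lower. Of these 21, 20 had 0 reads in both Mock libraries. In Mock against Input 22 were lower, beside 41.0% of all tested features. The example with the largest change, SmD2b (AT3G62840), an Sm ring protein, was at 93.8 and 53.6 FPKM in RIP, 0 and 0 FPKM in Mock, and 92.3 and 98.7 FPKM in Input, so RIP overlapped the level of the lysate. STA1 (AT4G03430), a tri-snRNP protein, was the exception with Mock reads, at 53.0 and 52.6 FPKM in RIP, 10.0 and 12.9 FPKM in Mock, and 14.3 and 13.8 FPKM in Input, and its log2 fold change in RIP against Mock was 2.12 (SE 0.32, limma adjusted p = 0.00796).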

How the data were processed

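The 6 RIP-seq libraries (2 RIP, 2 Mock and 2 Input) were made from rRNA-depleted RNA and read from one end over 75 bp. For alignment the authors used STAR, and for strand-specific counting summarizeOverlaps. The submitters' processing notes name TAIR10, and tool versions are not given in the sources used here. The deposited table is named as counts but holds FPKM, as its values show. Multiplied by exon length, 99.2 to 99.3% of values above 0 were whole multiples of 1 read within a tolerance of 0.02, and reads and library totals were recovered from this step. In all, 968 features have no RIP or Mock value and were left out. Because the unit is FPKM, limma 3.58.1 in R 4.3.3 was fitted to log2(FPKM + 1) of all 6 libraries with a mean-variance trend. The 19997 features that reached 1 FPKM in 2 or more libraries were tested, with Benjamini-Hochberg adjustment over all of them. Fold changes on this scale understate the change of low features. Voom on the recovered reads was an alternative, as were a replicate block, other scalings, pseudocounts and filters, and leaving out each library. The fit was also run on simulated reads, with mean levels taken from RIP for every group. That simulation does not hold the real Mock and Input levels, and no result here rests on it.

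Windows, promoters and 75-base stretches were read from the TAIR10.1 genome of RefSeq with Biopython 1.88. A window holds its RNA where local alignment to a representative member gives identical bases over at least 80% of the shorter sequence. Floors are 3 reads per library and intervals are exact (Clopper-Pearson). Named by rule were 5 example genes, the highest and the lowest tested member of each family by RIP level, members called in RIP against Mock, members tested but not called in RIP against Input, and members with equal reads in all libraries. Other members were named after their values were seen. The members and gene lists were chosen with earlier results of these data known. The sequence of U6 is not reported here.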

Additional observations from a re-analysis of the deposited data

How the results depend on the processing

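For snRNA genes called higher in RIP against Input (23), leaving out a library gave 12 to 25 and voom on the recovered reads gave 10. For RIP against Mock (9), leaving out a library gave 7 to 14, the fit of only the 2 groups compared gave 0, quantile normalization 4 and voom 0. For Mock against Input (18), leaving out a library gave 14 to 24 and voom gave 28. Over all features, RIP against Input (296) gave 56 to 599 without a library, 152 with the replicate block and 38 with voom. RIP against Mock (6853) gave 5108 to 9985 without a library, 0 in the fit of 2 groups, 228 under quantile normalization and 26 with voom, and Mock against Input (143) gave 62 to 425 without a library. The snRNP protein genes higher in RIP against Mock (21) were 10 to 30 without a library, 11 with the replicate block, 0 when those 2 groups were fitted alone, 1 under quantile normalization and 0 with voom, and those lower in Mock against Input (22) were 7 to 21 without a library, 2 under quantile normalization and 6 with voom. Fitting only the 2 groups compared gave 29 snRNA genes higher in RIP against Input and 17 in Mock against Input. With voom, U6-1, U6.3 and U6.4 were at -0.89 in RIP against Mock and U4.3p at 0.55 in Mock against Input, all with 0 Mock reads. The share of reads from snRNA genes, 17.2% in RIP, 10.2% in Mock and 0.00272% in Input, was 6.29%, 3.77% and 0.00144% with only the highest copy of each RNA, and 0.00101% in Input with only windows that hold their RNA, both chosen after seeing the data. Leaving out a library gave 13.1 to 21.3% in RIP, 9.95 to 10.5% in Mock and 0.00263 to 0.00281% in Input. The ratio of RIP to Mock ranged from 1.3 to 2.18 for U1, 0.966 to 2.56 for U2, 0.648 to 0.771 for U4, 0.534 to 1.17 for U5 and 0.568 to 0.772 for the minor genes without a library, and was 0.863 for U4 and 0.450 for the minor genes with the highest copy only. The cause was not tested.

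Whether the replicate numbers pair the libraries cannot be decided from 2 numbers only. Deviations of libraries with the same number correlated at 0.0122 (RIP and Mock), 0.0085 (RIP and Input) and -0.0017 (Mock and Input). With the replicate block, 20 snRNA genes were called higher over Input in RIP, 8 over Mock in RIP and 17 over Input in Mock. Where a library was left out, the lone library of its group was assumed to vary like the others. With 2 libraries a group, 1 of them decides many calls, and the Mock depth of 154149 to 197923 reads leaves levels under 15.2 to 19.5 CPM out of reach.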
